A study of Mus musculus with 7 samples.

Results

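The enzymes and cofactors that write, erase or maintain DNA methylation and Polycomb marks were followed in single nuclei of mouse small cell lung cancer. They were the 10 genes Dnmt1, Dnmt3a, Dnmt3b, Tet1, Tet2, Tet3, Uhrf1, Ezh1, Ezh2 and Kdm1a, taken by symbol from the 56941 genes that each of the 4 count matrices lists, and all 10 were found once. Nuclei came from fresh-frozen endpoint lung tumors of 4 male mice whose age the labels do not give. RP1 and RP2 carried Rb1 fl/fl and Trp53 fl/fl alleles, and RPC1 and RPC2 carried these alleles together with the loss of Casp8, which the labels write as Casp8-/- and the design text describes as conditional. All animals inhaled adenoviral Cre, which the methods of the study place under the CMV promoter, a promoter that is not restricted to a lung cell type. Each of the 7 libraries pools nuclei of all 4 animals, so the animal was the replicate.

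DNA methylation is copied after replication by Dnmt1, which Uhrf1 brings to hemimethylated sites, while Dnmt3a and Dnmt3b place new methyl groups and the Tet enzymes oxidize them. Ezh2 and its relative Ezh1 are the alternative catalytic subunits of Polycomb repressive complex 2 (PRC2), which methylates lysine 27 of histone H3. Kdm1a (LSD1) removes methyl groups from lysine 4 of histone H3. High EZH2 and LSD1 are known features of small cell lung cancer, and both enzymes are studied as drug targets in it.

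After filtering, 8363 to 10853 nuclei per animal remained, with medians of 2223 to 3392 transcripts, and both RPC animals were deeper than both RP animals. Of these, 7156 to 9228 per animal were tumor-like. Their clusters had low scores for all normal marker lists, and neuroendocrine markers above those of named normal nuclei that were not unusually deep. Normal lung, stromal and immune nuclei were named by their own markers. Levels are given as CPM, transcripts of a gene scaled to the same total in every sum of nuclei. Casp8 was counted over the whole gene, and tumor-like nuclei held 56.9 (RP1), 60.4 (RP2), 91.7 (RPC1) and 66.9 CPM (RPC2). Such a count does not separate the deleted exons from the rest, so it checks nothing about the labels. Tumor-like nuclei with at least 1000 transcripts were thinned to 1000 and sorted by 42 S-phase and 54 G2/M genes, none of them a member. The published S-phase list also holds Uhrf1, which was left out of the sort because it is a member. S-high nuclei had at least 8 S-phase transcripts, G2/M-high nuclei at least 17 G2/M transcripts, and cycle-low nuclei at most 8 of both together. These classes are ranges of a score: 1746 nuclei lay 1 transcript below the S-phase limit and 434 lay 1 below the G2/M limit. Classes were compared within animals by edgeR's quasi-likelihood test with the animal as a block. All adjusted p values are Benjamini-Hochberg values over every gene tested.

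The maintenance pair and Ezh2 were higher in S-high than in cycle-low nuclei, and Ezh1 and Tet2 were lower. Of the 10 members, 3 were called higher, where 14.6% of the 15075 genes tested were called higher, and 2 were called lower, where 13.9% of all genes were. All 10 members passed the filter on low counts. The S-high class held 491, 479, 1016 and 825 nuclei of RP1, RP2, RPC1 and RPC2. Neuroendocrine markers moved too: their median level was 86.6 to 92.2% of that of all tumor-like nuclei in S-high, 75.4 to 82.8% in G2/M-high and 109 to 115% in cycle-low nuclei, and their part in the member differences was not tested.

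Uhrf1, the reader of hemimethylated DNA, had the steepest rise of the members. It belongs to the published S-phase list from which the sorting genes came, so a rise with them was likely beforehand. Its level was 47.9, 38.8, 51.0 and 40.5 CPM in cycle-low nuclei of RP1, RP2, RPC1 and RPC2, and 105, 119, 98.4 and 85.5 CPM in S-high nuclei. Every S-high value lay above every cycle-low value. The fitted log2 fold was 1.14 ± 0.09 (SE, n = 4 animals), with an adjusted p of 2.94e-07. Among nuclei thinned to the same depth, 7.88 to 12.4% of S-high nuclei per animal held a Uhrf1 transcript, against 3.20 to 4.53% of cycle-low nuclei. At full depth the shares were 24.8 to 33.1% and 11.3 to 16.0%. Uhrf1 lies at chr17:56610275-56630489 on the + strand (GRCm39).

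Dnmt1, the maintenance methyltransferase, rose less. It was at 329, 323, 331 and 285 CPM in cycle-low nuclei and at 450.5, 457, 404 and 396 CPM in S-high nuclei of the same animals. Dnmt1 lies at chr9:20817945-20871184 on the - strand. The classes did not overlap, and all 4 animals went up. The log2 fold was 0.40 ± 0.05 (adjusted p = 3.99e-05). Without the animal block the value was as large, at 0.41, but its adjusted p was 0.131.

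Ezh2, the PRC2 subunit of dividing cells, went from 235, 174, 194 and 166 CPM in cycle-low nuclei of RP1, RP2, RPC1 and RPC2 to 377.5, 323, 321 and 285 CPM in S-high nuclei. Even the lowest S-high animal lay above the highest cycle-low animal. The log2 fold was 0.74 ± 0.05 (adjusted p = 1.01e-07), and the ratio within an animal ran from 1.61 in RP1 to 1.86 in RP2. Ezh1, the PRC2 subunit typical of resting cells, went the other way, from 86.1, 107, 111 and 101 CPM to 65.9, 65.2, 77.9 and 78.2 CPM. It fell by 0.51 ± 0.07 on the log2 scale (adjusted p = 5.78e-05), in 4 of 4 animals and again with no overlap. Without the animal block it was -0.52, with an adjusted p of 0.0592. The genes lie at chr6:47507073-47572331 (Ezh2) and chr11:101081934-101117315 (Ezh1), both on the - strand. The ratio of the paralogs was not tested as such.

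**Figure D1:**
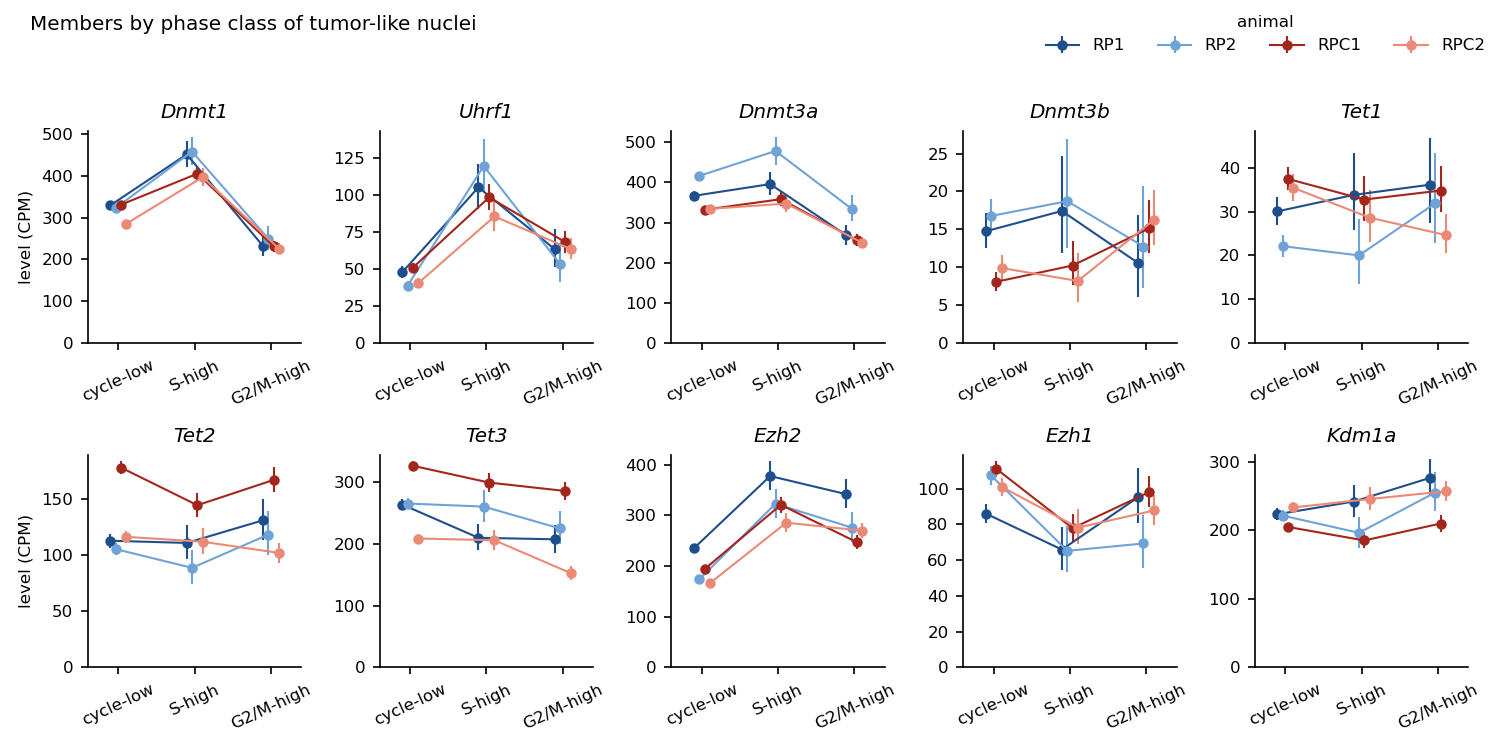
Level of each member in CPM (vertical axis, starting at 0) in cycle-low, S-high and G2/M-high tumor-like nuclei (horizontal axis), with a line per animal and bars for the exact 95% Poisson interval, which covers counting error only. Uhrf1, Dnmt1 and Ezh2 peak in the S-high class in each of the 4 animals, and Ezh1 dips there.

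Promoter sequence was set beside these changes, since E2F factors, which Rb1 restrains, are known to bind short words near the start of S-phase genes. All 10 members had at least 1 window of 300 bases in the RefSeq promoter table (build GRCm38.p6), 250 before and 50 after a start site. The words TTTCCCGC, TTTGGCGC, TTTCGCGC and TTCCCGCC were searched on both strands, and at least 1 of them was present in windows of 4% of all 27025 genes. Among the members, 3 held one: Uhrf1, Dnmt1 and Ezh2, the 3 members called higher in S-high nuclei. The other 7, Ezh1 included, held none in these windows. Each match is given with the word in capitals, in the direction of the gene, by GRCm38.p6 position. Where a word lies on the opposite strand, its reverse complement is in capitals.
Uhrf1, first start (chr17:56303278-56303307, + strand): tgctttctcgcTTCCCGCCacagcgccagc
Uhrf1, second start (chr17:56304117-56304146, + strand): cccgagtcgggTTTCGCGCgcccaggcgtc
Ezh2 (chr6:47595009-47595038, - strand): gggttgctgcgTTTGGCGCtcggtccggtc
Dnmt1, upstream match (chr9:20952824-20952853, - strand): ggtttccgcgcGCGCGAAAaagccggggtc
Dnmt1, downstream match (chr9:20952574-20952601, - strand): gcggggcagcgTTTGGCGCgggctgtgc

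Among genes tested with a window, 15.7% of the 1736 genes called higher in S-high nuclei held such a word, against 7.43% of all 11168 and 4.28% of the 1588 called lower. A match is a run of letters and not a measured binding site. The 250 bases before the start are given for both Uhrf1 starts, which differ in their word, and for the paralogs Ezh2 and Ezh1, which moved in opposite directions. The Ezh2 match lies just after its start and so is outside its run. The Ezh1 run has no capitals because no word was found.
Uhrf1, first start (chr17:56303087-56303336, + strand): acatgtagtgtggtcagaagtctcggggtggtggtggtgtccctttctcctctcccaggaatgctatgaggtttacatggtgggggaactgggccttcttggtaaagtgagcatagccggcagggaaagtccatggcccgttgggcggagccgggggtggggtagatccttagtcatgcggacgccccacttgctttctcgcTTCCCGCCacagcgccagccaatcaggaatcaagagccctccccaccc
Uhrf1, second start (chr17:56304063-56304312, + strand): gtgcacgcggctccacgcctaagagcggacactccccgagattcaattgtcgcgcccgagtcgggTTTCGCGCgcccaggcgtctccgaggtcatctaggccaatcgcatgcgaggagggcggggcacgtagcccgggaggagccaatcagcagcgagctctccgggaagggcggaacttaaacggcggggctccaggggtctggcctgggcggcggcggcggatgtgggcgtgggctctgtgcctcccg
Ezh2 (chr6:47595031-47595280, - strand): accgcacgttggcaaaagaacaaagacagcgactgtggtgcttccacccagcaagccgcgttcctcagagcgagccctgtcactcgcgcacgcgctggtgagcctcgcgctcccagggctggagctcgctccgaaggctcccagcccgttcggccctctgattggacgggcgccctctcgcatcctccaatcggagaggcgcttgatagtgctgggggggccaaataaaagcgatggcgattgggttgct
Ezh1 (chr11:101226464-101226713, - strand): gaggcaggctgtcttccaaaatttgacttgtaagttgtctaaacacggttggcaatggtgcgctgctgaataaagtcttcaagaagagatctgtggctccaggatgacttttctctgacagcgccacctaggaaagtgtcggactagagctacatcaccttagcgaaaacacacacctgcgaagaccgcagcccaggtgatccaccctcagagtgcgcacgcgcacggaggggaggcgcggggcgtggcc

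The CHR word TTTGAA, linked to genes of late cell cycle phases, was present in windows of 2 members, Dnmt1 and Dnmt3b, and of 20.2% of all genes.

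The de novo methyltransferases and the Tet enzymes moved little between S-high and cycle-low nuclei. Tet2 was the exception by the test: it was at 113, 105, 178 and 116 CPM in cycle-low and 111, 88.5, 144 and 112 CPM in S-high nuclei, and fell by 0.19 ± 0.06 on the log2 scale (adjusted p = 0.0388). RPC1 had the highest Tet2 in both classes, and the classes overlapped between animals. The Tet2 call was lost in 6 of 12 alternative settings, with adjusted p up to 0.793. The log2 folds of Dnmt3a, Tet3 and Tet1 were 0.09, -0.15 and -0.17, with adjusted p of 0.193, 0.0814 and 0.259. Dnmt3b, at 8.11 to 16.8 CPM in cycle-low nuclei, was the least abundant member in transcript counts and gave 0.11 ± 0.15 (adjusted p = 0.623). Kdm1a gave -0.06 ± 0.06 (adjusted p = 0.541), with 2 animals up and 2 down.

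G2/M-high nuclei showed a different pattern of the maintenance pair: Uhrf1 was still above cycle-low nuclei, while Dnmt1 was below them. Of the 10 members, 2 were called higher (15.8% of all 15031 genes) and 3 lower (16.6% of all genes). This comparison uses the same cycle-low nuclei as the S-high comparison. There were 470, 381, 937 and 1073 G2/M-high nuclei in RP1, RP2, RPC1 and RPC2.

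Dnmt1 was at 232, 249, 231 and 226 CPM in G2/M-high nuclei of the 4 animals, each below all cycle-low values. It fell by 0.42 ± 0.07 on the log2 scale (adjusted p = 0.000144). Dnmt3a, a de novo methyltransferase, fell by 0.37 ± 0.06 (adjusted p = 0.000313) in 4 of 4 animals, from 366, 416, 332 and 334 to 268, 334, 256 and 250 CPM. Tet3 also fell in all 4 animals, by 0.29 ± 0.07 (adjusted p = 0.00465), from 209 to 326 CPM in cycle-low nuclei to 153 to 285 CPM.

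Ezh2 stayed above the cycle-low level, at 342, 276, 247 and 270 CPM, with a log2 fold of 0.58 ± 0.07 (adjusted p = 1.36e-05). Uhrf1, at 63.5, 53.4, 68.2 and 63.6 CPM, gave 0.51 ± 0.08 (adjusted p = 0.000216). Both were higher in 4 of 4 animals without overlap. Without the animal block the log2 folds of Ezh2, Uhrf1, Dnmt3a and Tet3 were 0.58, 0.50, -0.37 and -0.27, and all 4 calls were lost, with adjusted p of 0.0688, 0.0584, 0.182 and 0.540. Kdm1a was higher in 4 of 4 animals too, by 0.18 ± 0.07, but its adjusted p of 0.0536 missed the threshold. Ezh1 gave -0.18 ± 0.10 (adjusted p = 0.175), and RP1 alone went up. Dnmt3b, Tet1 and Tet2 gave 0.40, -0.04 and 0.02 (adjusted p = 0.151, 0.871 and 0.892).

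**Figure D2:**
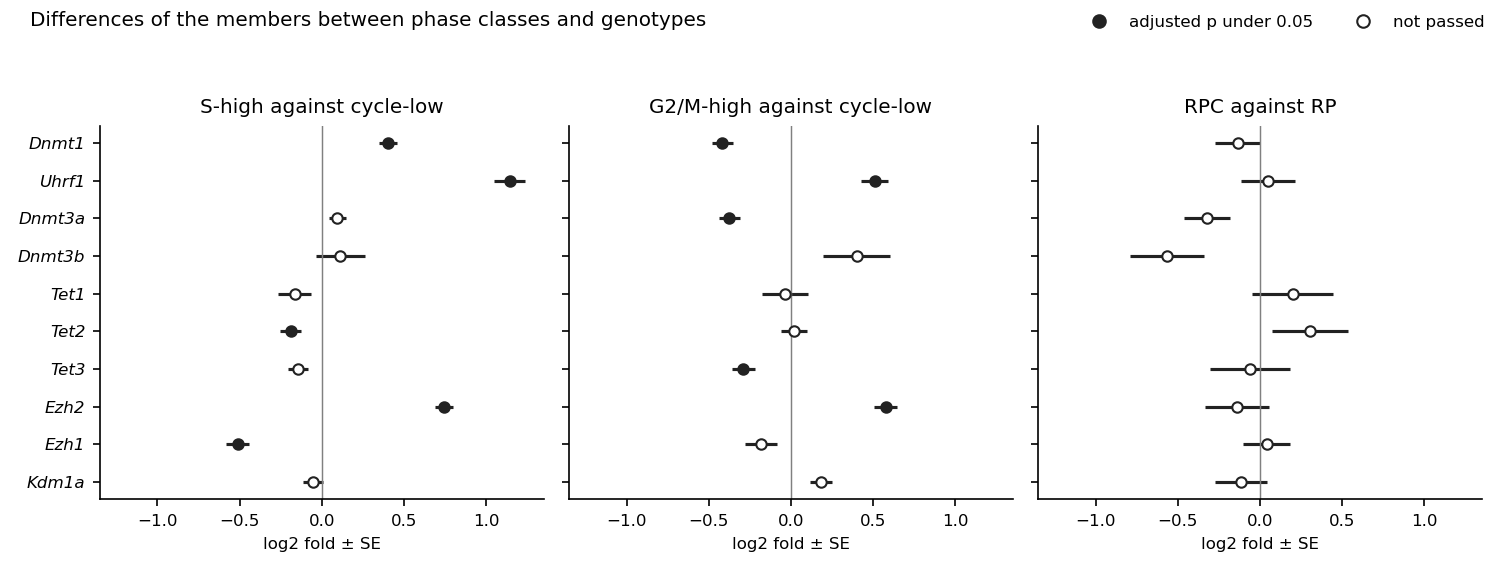
Log2 fold with its SE (horizontal axis) of each member (vertical axis) in S-high against cycle-low, G2/M-high against cycle-low and RPC against RP tumor-like nuclei; filled points have an adjusted p under 0.05. Dnmt1 lies right of 0 in the S-high panel and left of 0 in the G2/M-high panel, Uhrf1 and Ezh2 lie right of 0 in both, and no point is filled in the genotype panel.

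G2/M-high and S-high nuclei were also compared directly, an alternative added after the data had been seen. Here 4 members were called lower (18.9% of all 12071 genes) and 2 higher (17.4%). Dnmt1 had the largest difference of the members: its G2/M-high level was 0.515 to 0.572 times the S-high level of the same animal, with a log2 fold of -0.83 ± 0.06 (adjusted p = 2.09e-13). Uhrf1 was lower by -0.60 ± 0.09 (adjusted p = 3.49e-06) and Dnmt3a by -0.48 ± 0.06 (adjusted p = 3.04e-08), both in 4 of 4 animals. Ezh2 differed least of the members called lower, by -0.18 ± 0.06 (adjusted p = 0.0168). Ezh1 was higher by 0.31 ± 0.09 (adjusted p = 0.00427) and Kdm1a by 0.21 ± 0.06 (adjusted p = 0.00732). Ezh2 lost its call in 4 of 12 settings and Ezh1 and Kdm1a lost theirs in 2 of 12 each.

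Partners of PRC2 were counted in the same classes. In S-high nuclei, 7 of 11 tested partners were called higher and 2 lower, with a median log2 fold of 0.36 against -0.03 over all genes, where 14.6% of all genes were called higher and 13.9% lower. Suz12, the core scaffold of PRC2, was at 261, 251, 224 and 249 CPM in S-high and at 176, 150, 161 and 148 CPM in cycle-low nuclei of the 4 animals. Its log2 fold was 0.61 ± 0.06 (adjusted p = 2.43e-06), and no S-high value reached down to a cycle-low one. Phf19, a Polycomb-like protein that recruits PRC2, gave 0.84 ± 0.11 (adjusted p = 3.53e-05). Eed, another core subunit, gave 0.43 ± 0.08 (adjusted p = 0.00089), and the histone chaperone Rbbp4 gave 0.54 ± 0.07 (adjusted p = 4.15e-05).

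In G2/M-high nuclei, 6 of the 11 PRC2 partners were called higher and 1 lower, with a median of 0.31 against -0.03 over all genes, where 15.8% of all genes were called higher and 16.6% lower. Phf19 reached 76.6, 45.4, 58.9 and 54.6 CPM, against 16.7, 17.8, 21.4 and 14.2 CPM in cycle-low nuclei. This was a log2 fold of 1.76 ± 0.13 (adjusted p = 4.02e-08), without overlap. Suz12 gave 0.72 ± 0.07 (adjusted p = 1.97e-06) and Lcorl, a PRC2-associated factor, 1.04 ± 0.06 (adjusted p = 5.06e-09).

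PRC1 is the Polycomb complex that ubiquitinates histone H2A. In S-high nuclei 9 of 24 subunits were called higher and 1 lower (median 0.13), beside 14.6 and 13.9% of all genes. Kdm2b (0.57 ± 0.07) and Phc1 (0.51 ± 0.08) were among those called higher, with adjusted p of 1.05e-05 and 0.000333. In G2/M-high nuclei 5 were higher and 4 lower (median 0.13), near the shares of all genes, 15.8 and 16.6%. L3mbtl2 had 1.31 ± 0.10 (adjusted p = 5.61e-08), while Pcgf5 fell by 0.37 ± 0.07 (adjusted p = 0.00106). Of the 3 genes listed as H3K27 demethylases, Kdm6b fell by 0.63 ± 0.10 (adjusted p = 0.000141) and Uty by 0.36 ± 0.06 (adjusted p = 0.000431) in S-high nuclei. Kdm6a gave -0.05 ± 0.06 (adjusted p = 0.592) there. In G2/M-high nuclei Kdm6b alone of the 3 was called, with a fall of 0.37 ± 0.09 (adjusted p = 0.00659).

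Partners and readers of DNA methylation went in both directions. Of 23 tested in S-high nuclei, 5 were called higher and 4 lower, beside 14.6 and 13.9% of all genes, with a median of -0.03 that equalled the median of all genes at this rounding. Cdca7l, a relative of Cdca7, rose by 0.90 ± 0.09 (adjusted p = 3.38e-06) and the glycosylase Mbd4 by 0.59 ± 0.10 (adjusted p = 0.000472). Ogt, a glycosyltransferase that binds Tet proteins, fell by 0.45 ± 0.05 (adjusted p = 1.98e-05). In G2/M-high nuclei 4 of 24 were higher and 3 lower (median 0.01), beside 15.8 and 16.6% of all genes. Uhrf2, the relative of Uhrf1, had 0.41 ± 0.07 there (adjusted p = 0.000325), and Mat2a, which makes the methyl donor, 0.54 ± 0.10 (adjusted p = 0.00042).

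Hells and Cdca7, which form the remodeler needed for maintenance methylation in closed chromatin, were among the S-phase genes that sorted the nuclei and were left out of these counts. Their levels are a description. Hells was at 217.9, 152, 129 and 213 CPM in S-high, at 107, 76.8, 75.1 and 100.5 CPM in cycle-low and at 56.0, 63.0, 53.4 and 78.7 CPM in G2/M-high nuclei.

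The LSD1 list had 2 higher and 3 lower of 14 in S-high nuclei (median 0.06) and 3 higher and 4 lower in G2/M-high nuclei (median -0.19), beside 14.6 and 13.9% of all genes in the former and 15.8 and 16.6% in the latter. The histone deacetylase Hdac1 rose by 0.48 ± 0.08 in S-high nuclei (adjusted p = 0.000185). Gfi1, a repressor that recruits LSD1, fell by 0.57 ± 0.15 in S-high (adjusted p = 0.0105) and by 0.86 ± 0.17 in G2/M-high nuclei (adjusted p = 0.00128). Phf21a, the LSD1 subunit that reads unmethylated lysine 4, fell by 0.28 ± 0.05 and 0.31 ± 0.07 (adjusted p = 0.000566 and 0.00169).

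**Figure D3:**
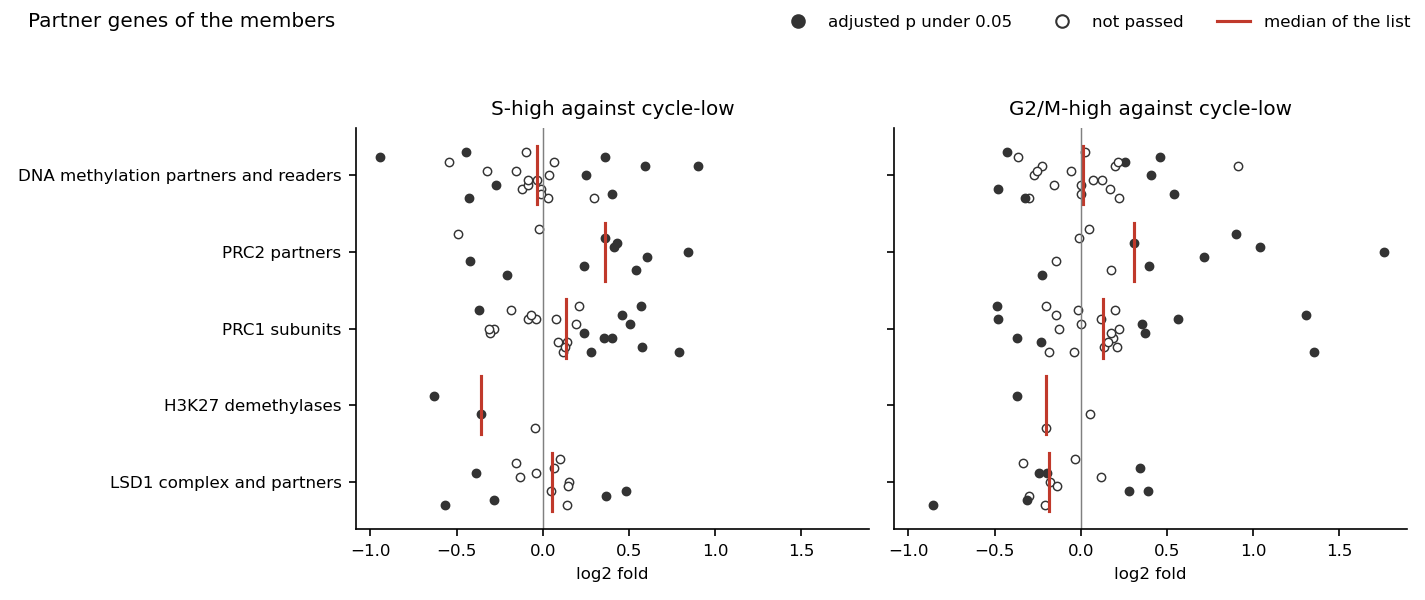
Log2 fold (horizontal axis) of every tested gene of the 5 partner lists (vertical axis) in S-high and G2/M-high against cycle-low tumor-like nuclei, without members and without genes that sorted the nuclei; filled points have an adjusted p under 0.05 and the red bar is the median of the list. The PRC2 partners have medians of 0.36 and 0.31, and the H3K27 demethylases lie mostly left of 0.

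RPC was next compared with RP over all tumor-like nuclei, which asks whether these enzymes differ with the loss of Casp8. No member was called, where 0% of all 20129 genes were called by edgeR; 15.2% of all genes (3064) had an unadjusted p under 0.05, and none of the members did. DESeq2 called 645 genes but no member. The ribosomal RNA gene Rn18s-rs5 took 9.99 and 8.49% of transcripts in RP1 and RP2 and 3.09 and 5.35% in RPC1 and RPC2, so this measure moved with genotype. Without that gene no member was called either. Most tumor-like clusters were made up largely of nuclei of 1 animal. The 2 animals of each genotype could not reach a p below 0.333 in an exact permutation test of a single value.

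The maintenance pair overlapped between the genotypes. Dnmt1 was at 332, 334, 333 and 300.4 CPM in the order RP1, RP2, RPC1, RPC2, with a log2 fold of -0.14 ± 0.14 (adjusted p = 0.647). Uhrf1 was at 60.4, 54.2, 67.5 and 56.2 CPM, with 0.05 ± 0.16 (adjusted p = 0.906). RPC2 was the lowest of the 4 for Dnmt1, and RPC1 the highest for Uhrf1.

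Dnmt3a and Dnmt3b were lower in both RPC animals than in both RP animals, a pattern that 25.5% of all genes shared; 50.3% of all genes had genotypes that did not overlap in either direction. Dnmt3a was at 361, 409, 327 and 315 CPM in the order RP1, RP2, RPC1, RPC2, a log2 fold of -0.32 ± 0.14 (adjusted p = 0.352). Dnmt3b was at 14.8, 16.4, 9.83 and 12.1 CPM, a log2 fold of -0.57 ± 0.22 (adjusted p = 0.329). Their unadjusted p were 0.0687 and 0.0513.

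The remaining members overlapped. Ezh2 was at 279.8, 207, 241 and 221 CPM (log2 fold -0.14 ± 0.20, adjusted p = 0.75). Here RP1 was highest and RP2 lowest, so that the largest gap lay within a genotype. Tet2 was at 109, 101, 165 and 106 CPM (0.31 ± 0.23, adjusted p = 0.543), which was a high value of RPC1 alone. Tet3 was at 247, 259, 313 and 193 CPM, with the 2 RPC animals at the extremes (-0.06 ± 0.24, adjusted p = 0.916). Tet1 was at 33.2, 22.1, 34.6 and 31.8 CPM, with RP2 low. Over the 7 sublibraries of an animal, the coefficient of variation was at most 5.22% for Dnmt1, Dnmt3a, Tet3, Ezh2 and Kdm1a and 10.5 to 18.1% for Dnmt3b. Between the first-round wells of an animal, which hold separate aliquots of its nuclei, the spread was larger: it reached 15.7% for Dnmt1 (294 and 367 CPM in the wells of RP2), 32.4% for Ezh1 (59.4 and 94.7 CPM in RP1), 24.2% for Uhrf1 in RP2 and 18.6% for Tet2 in RP1. Ezh1 and Kdm1a ran from 80.5 to 97.6 CPM and from 202 to 241 CPM.

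Among the nuclei sorted by phase, the S-high and G2/M-high shares were larger in the RPC animals. S-high nuclei made up 7.73 and 7.37% of the sorted nuclei in RP1 and RP2 and 11.2 and 9.98% in RPC1 and RPC2. G2/M-high nuclei made up 7.40, 5.86, 10.3 and 12.98%. Both RPC animals lay above both RP animals for each class, and an exact permutation test, two-sided, gave p = 0.333 for each, which 2 animals against 2 cannot go below. When the top 20% of nuclei were taken, G2/M-high shares overlapped, at 17.1, 13.7, 16.3 and 21.8%. Sorting left out tumor-like nuclei under 1000 transcripts, and these were more frequent in RP: 801 (RP1) and 746 (RP2), against 148 (RPC1) and 421 (RPC2). The shares were also not computed without Rn18s-rs5, which took a larger part of transcripts in both RP animals. How far these 2 limits account for the difference in shares was not tested.

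Within cycle-low nuclei, where the difference in cycling shares enters less, no member was called either (0% of all 16894 genes by edgeR, while DESeq2 called 431). These nuclei still held means of 2.19 to 2.58 S-phase and 2.28 to 2.61 G2/M transcripts per 1000 in each animal. An unadjusted p under 0.05 was found for 1 member, against 2705 genes or 16% of all. That member was Dnmt3b, at 14.8, 16.8, 8.11 and 9.92 CPM in the order RP1, RP2, RPC1, RPC2, with a log2 fold of -0.85 ± 0.24 (adjusted p = 0.266). Tet1 and Tet2 were higher in both RPC animals here, by 0.43 ± 0.21 and 0.38 ± 0.22 on the log2 scale (adjusted p = 0.376 and 0.427). Genotypes that do not overlap were found for 51.3% of all genes in these nuclei. Dnmt3a gave -0.28 ± 0.15 (adjusted p = 0.395) and Dnmt1 gave -0.13 ± 0.14 (adjusted p = 0.664).

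Among the partners no gene was called between genotypes in any of the 5 lists. An unadjusted p under 0.05, which 15.2% of all genes had, was found for 3 of 26 DNA methylation partners, 2 of 11 PRC2 partners, 4 of 24 PRC1 subunits, 2 of 3 H3K27 demethylases and 4 of 14 LSD1 partners. They are given as values, and they went in both directions. Higher in RPC were Scml2, a PRC1-associated protein (0.92 ± 0.31, adjusted p = 0.301), Cxxc4 (0.73 ± 0.23, adjusted p = 0.291) and Uty (0.40 ± 0.13, adjusted p = 0.293); the other 12 were lower. Cbx2, a PRC1 subunit that binds the Polycomb mark, was at 31.9, 28.7, 11.1 and 14.6 CPM in the order RP1, RP2, RPC1, RPC2 (log2 fold -1.30 ± 0.22, adjusted p = 0.266). Kdm6b was at 92.3, 66.9, 40.0 and 38.7 CPM (-1.08 ± 0.21, adjusted p = 0.266), and Mbd3, a subunit of the NuRD complex, at 24.5, 25.3, 10.2 and 12.9 CPM (-1.17 ± 0.21, adjusted p = 0.266). Rbbp4 and Hdac1 had -0.83 ± 0.21 and -0.73 ± 0.18 (adjusted p = 0.273 and 0.272). Phc2 had -0.65 ± 0.13 (adjusted p = 0.272). These last 3 genes lie close together on chromosome 4 (GRCm39), Phc2 at chr4:128548459-128648100, Rbbp4 at chr4:129184867-129229170 and Hdac1 at chr4:129409895-129436631. Kdm1a lies on the same chromosome at chr4:136277846-136330106 and gave -0.12 ± 0.16 (adjusted p = 0.746).

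Whether the phase differences depended on genotype was tested by an interaction term. Of the 16311 genes tested, 0.00613% (1 gene, no member) were called for S-high nuclei and 4.54% had an unadjusted p under 0.05. Uhrf1 was the single member among the latter: its S-high level was 2.20 and 3.08 times the cycle-low level in RP1 and RP2 and 1.93 and 2.11 times in RPC1 and RPC2. The interaction was -0.39 ± 0.16 on the log2 scale (adjusted p = 0.977). RP2 carried much of it, since the value was -0.15 without that animal. For G2/M-high nuclei, where the term was added after the data had been seen, 0.0245% of genes (4, no member) were called and 5.84% had an unadjusted p under 0.05. Dnmt3b, Tet1 and Tet2 were the members among the latter.

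In normal classes the members were compared with tumor-like nuclei of the same animal, as levels with no test. Normal nuclei also held transcripts of neuroendocrine markers. In classes of ordinary depth, the median neuroendocrine marker was at 11.5 to 59.6% of the tumor-like level, except in T or NK cell-like and smooth muscle or pericyte-like nuclei, where it was at 70.7 to 83.6%. Sub-clusters with more than 2 times the median depth of their animals, which included all fibroblast-like and ciliated-like nuclei, held it at 45.9 to 97.5% and are given apart. The source of these marker transcripts was not tested, nor how much of a member's level in normal nuclei came with them.

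Dnmt1, Uhrf1, Ezh2 and Kdm1a were below the tumor-like level in 23 of 23 pairs of class and animal over the 7 ordinary-depth classes without those 2, at medians of 44.0, 42.1, 45.3 and 56.4%. Pairs of the same animal share its tumor-like level, so they are not independent. Such counts of pairs were not computed over all genes, so how common they are is not known. Over all 9 ordinary-depth classes they were above it in 1, 3, 3 and 1 of 31 pairs. All 8 pairs above it belonged to the T or NK cell-like class, where Uhrf1 was at 108, 129, 104 and 97.4% in RP1, RP2, RPC1 and RPC2, on 8 to 21 transcripts an animal, and Ezh2 at 106, 116, 45.3 and 105%. Alveolar type 2-like nuclei, the surfactant-producing epithelium, had Dnmt1 at 92.99, 86.3 and 66.7 CPM in RP2, RPC1 and RPC2, or 22.2 to 27.8% of the tumor-like level, with neuroendocrine markers at 11.5 to 18.3%. Tet1 was below in 21 of 23 pairs. Tet2 was above in 16 of 23 pairs, with a median of 118%, and Tet3 was above in 11 and below in 12.

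Macrophage or monocyte-like nuclei had Dnmt3a, Tet2 and Tet3 above the tumor-like level. Their Dnmt3a was at 743, 694, 429 and 564 CPM in the order RP1, RP2, RPC1, RPC2, 131 to 206% of the tumor-like level, in 4 of 4 animals. Tet2 was at 250.2, 163, 285 and 161 CPM, 151 to 229%, and Tet3 at 412, 404, 403 and 396 CPM, 129 to 205%. Neuroendocrine markers were at 14.1 to 32.5% in the same nuclei. Kdm1a, by contrast, was at 16.1 to 44.8%. The deep macrophage or monocyte-like nuclei, whose neuroendocrine markers were at 72.7 to 84.9%, had Dnmt3a at 108 to 122% and Ezh2 at 70.8 to 96.1%.

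Thinned to 1000 transcripts, 30.5 to 51.3% of macrophage or monocyte-like nuclei per animal held a Dnmt3a transcript, against 26.5 to 32.6% of tumor-like and 15.9 to 26.2% of endothelial-like nuclei, at median depths of 2292 to 3532, 2504 to 3381 and 1746 to 2493 transcripts. At full depth the shares were 67.6 to 76.3, 60.5 to 66.0 and 28.7 to 49.2%. For Ezh2 the thinned shares were 8.55 to 11.4, 18.0 to 22.8 and 6.67 to 20.6%. Dnmt3b was found in 0.837 to 1.52% of tumor-like nuclei. In endothelial-like nuclei it was found in 0 of 60, 65, 63 and 87, which allows up to 5.00, 4.62, 4.76 and 3.45%, so a difference from tumor-like nuclei was not detectable at this depth.

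**Figure D4:**
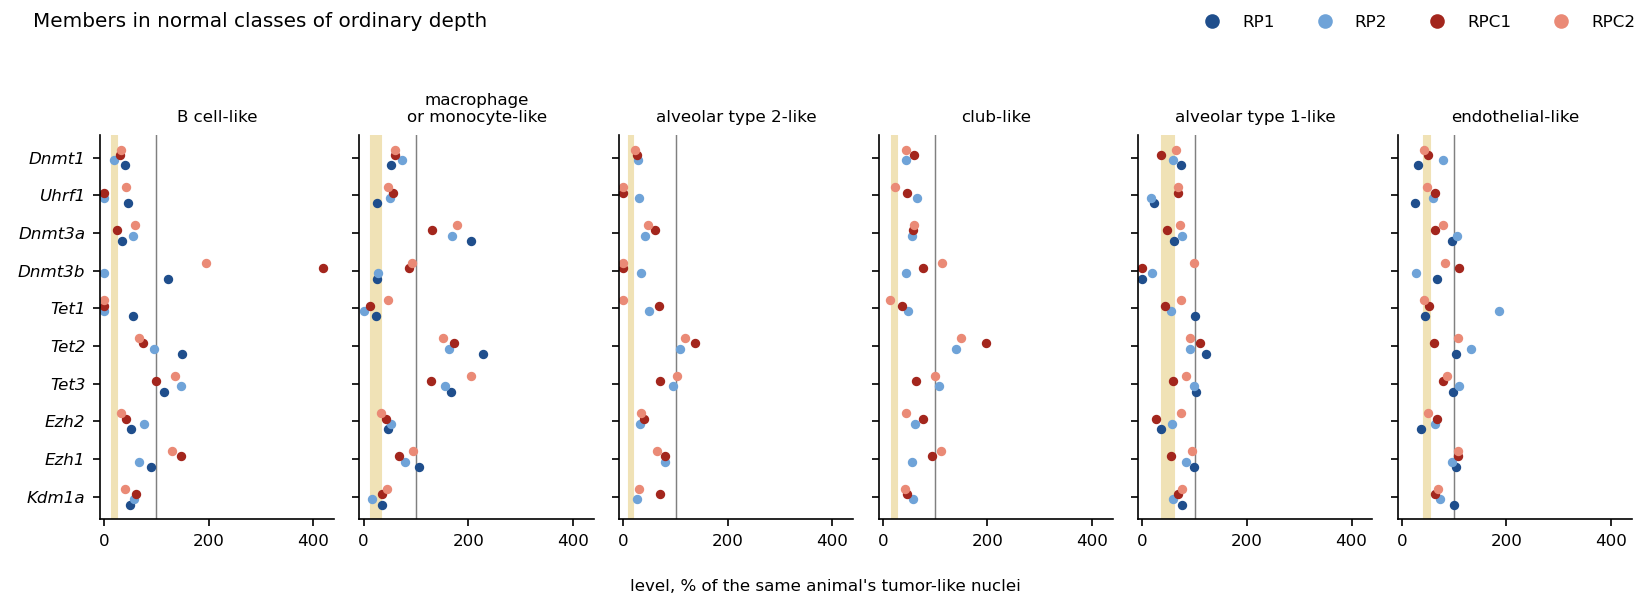
Level of each member (vertical axis) in 6 normal classes of ordinary depth, in percent of the tumor-like level of the same animal (horizontal axis, line at 100), with a point per animal and a shaded band for the range of the median neuroendocrine marker. Macrophage or monocyte-like points of Dnmt3a, Tet2 and Tet3 lie right of 100 in 4 of 4 animals, while Ezh2 and Kdm1a lie left of it.

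Club-like nuclei of the airway had high Tet2 as well, at 140, 326 and 159 CPM in RP2, RPC1 and RPC2, or 139 to 197% of the tumor-like level. This class joined a sub-cluster with 225 of its 312 nuclei from RPC1 and another with 61 of its 106 nuclei from RPC2. The club-like values of these animals therefore come from unlike mixtures of nuclei. RPC1, whose tumor-like Tet2 was the highest, also had the highest Tet2 in alveolar type 1-like, alveolar type 2-like, club-like and macrophage or monocyte-like nuclei of ordinary depth. In endothelial-like nuclei it had the lowest, and in B cell-like nuclei RP1 was highest, at 163 CPM against 124 CPM in RPC1.

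A tumor-like cluster led by neuronal genes such as Grik2 and Nrxn3, with 602 of its 654 nuclei in RPC1, had Ezh2 at 332 CPM (95% Poisson interval 319 to 346), 138% of all tumor-like nuclei of that animal. Its Ezh1 was at 79.8% and its Dnmt1 at 99.2%. In the 27 nuclei of this cluster from RPC2, Ezh2 was at 410 CPM (275 to 589), or 185% of that animal's tumor-like level, and Ezh1 rested on few transcripts, at 56.6 CPM (15.4 to 145).

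Finally, the genes whose pattern was most like that of each member were sought among 7750 genes with a mean of at least 20 CPM. Pearson's r of log2 (CPM + 5) was taken over 43 sums, one for each animal and class, which share animals and depth, so r is a description. Uhrf1 was most like E2f7 (r = 0.824), Wdhd1 and Trim37. Ezh2 was most like Hnrnpr (0.875), Tyms (0.841) and Smarcc1 (0.833), and Dnmt1 was most like Tipin (0.854), Cracd and Shank1. Tyms and Tipin are among the S-phase genes that sorted the nuclei, so their likeness was partly set by the sort. E2f7 is a repressor of the E2F family. Lin9 (0.850) and Fgf12 were among the genes most like Kdm1a, and Tet1 was most like Uchl1 (0.797), Cacng7 and Macroh2a2. Uchl1 is a neuroendocrine marker. Dnmt3a was most like Daglb (0.840), Abr and Dgkz, Tet2 like Mthfs (0.765), Man2a1 and Tbc1d5, Tet3 like Cmip (0.755), mt-Rnr2 and Rps6ka1, and Ezh1 like Zfp408 (0.628), Ppp4r1l-ps and Csnk1g3. Dnmt3b was under the minimum. Among the members, Uhrf1 and Ezh2 were most alike (0.722), followed by Ezh2 and Kdm1a (0.641), Dnmt1 and Ezh2 (0.629) and Dnmt1 and Uhrf1 (0.609). Dnmt3b and Tet2 had the lowest value (-0.399).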

How the data were processed

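Single-nucleus RNA was barcoded by split-pool indexing (Parse Evercode). The authors aligned reads to GRCm39, named in the submitters' processing notes, and split animals with the Parse pipeline, and the deposited matrices hold unnormalized counts of transcripts per nucleus and gene. The 4 animals share 0 barcodes. Of the 12 columns of the deposited table of nuclei, 8 were not used, and the number of the first-round well, per the file headers, served only to measure technical spread. The 7 sublibrary suffixes were not matched to the 7 libraries of the labels. The matrices held 32299909 (RP1), 35420582 (RP2), 72446861 (RPC1) and 57515082 (RPC2) transcripts.

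As in the methods of the study, nuclei needed at least 300 counts, at most 10% from mitochondrial genes, and at most 12000 genes detected. Clustering used 2000 variable genes without the members, 20 principal components and 20 neighbors, with Leiden resolution 0.4 (Python 3.11.15, scikit-learn 1.9.0, leidenalg 0.10.2). Clusters were named by 13 marker lists, and the naming rule and the limit for deep sub-clusters were set after the data had been seen. A cluster of 1818 shallow nuclei stayed unnamed. No doublet caller was run: deep normal sub-clusters were given apart, and nuclei above 4 times the median of their animal were left out in an alternative. Names are reconstructions.

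Counts were summed per animal and class and tested two-sided with edgeR 4.0.16 (quasi-likelihood, TMM, filterByExpr, adjusted p under 0.05) under R 4.3.3. SE was calculated as the absolute log2 fold divided by the square root of F. DESeq2 1.42.0, the tool of the study, was an alternative. CPM are without TMM. CPM were not compared between genes, since nuclear counts depend on gene length. The animal was the replicate. For RPC against RP, p values measure the spread between these 4 animals. In the phase comparisons and genotype terms with the animal block, p values measure the spread of the differences within animals. Scripts were tested on simulated counts. The members, lists and tests were chosen with earlier results of these data known. Named genes were the members, up to 4 genes per partner list and comparison with the smallest adjusted p among called genes, or the smallest unadjusted p where none was called, 5 fixed partners (Cdca7, Hells, Eed, Suz12 and Kdm6a), and the 3 genes most like each member, of which 1 is not reported here; Grik2 and Nrxn3 were named after their values were seen. A promoter is a window of 300 bases. Intervals and limits of 0 counts (3 counts) cover counting error only.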

Additional observations from a re-analysis of the deposited data

Results flagged for a closer look

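For 3 members, both RP animals moved one way and both RPC animals the other between cycle-low and G2/M-high nuclei, and the genotype term had an unadjusted p under 0.05. Such a p was found for 5.84% of all genes, and how many of them split this way was not computed. The genotype term was added after the data had been seen, and none of the 3 passed adjustment over 16311 genes. The G2/M-high level of Dnmt3b was 0.717 and 0.760 times the cycle-low level in RP1 and RP2 but 1.86 and 1.64 times in RPC1 and RPC2, a difference of 1.25 ± 0.30 on the log2 scale (edgeR, adjusted p = 0.357). Dnmt3b was at 8.11 to 16.8 CPM in these classes. For Tet1 the ratios were 1.20, 1.44, 0.929 and 0.696, a difference of -0.68 ± 0.23 (edgeR, adjusted p = 0.733). For Tet2 they were 1.16, 1.12, 0.939 and 0.877, a difference of -0.33 ± 0.14 (edgeR, adjusted p = 0.854). Groups of 2 animals were too small to look for a single outlying animal.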

How the results depend on the processing

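Counts of called genes in the phase comparisons moved with the block. Without the animal as a block, 261 genes were called for S-high against cycle-low (4297 with it), 996 for G2/M-high against cycle-low (4869 with it) and 728 for G2/M-high against S-high (4383 with it). In those fits Ezh1 (log2 fold -0.52, adjusted p = 0.0592), Dnmt1 (0.41, 0.131) and Tet2 (-0.19, 0.793) lost their S-high calls, and Uhrf1 (0.50, 0.0584), Ezh2 (0.58, 0.0688), Dnmt3a (-0.37, 0.182) and Tet3 (-0.27, 0.540) their G2/M-high calls, with folds close to those with the block. DESeq2 called 645 genes between genotypes, 431 within cycle-low nuclei and 2490 for G2/M-high against S-high. Without a filter on low counts, edgeR called 2 and 1495 genes between genotypes over all and over cycle-low nuclei, and 39 and 67 genes for the S-high and G2/M-high genotype terms, where Dnmt3b was called (1.33, adjusted p = 0.0338). The causes were not tested. Leaving out each animal gave 3330 to 3583, 3833 to 4369 and 3378 to 4234 calls for the 3 phase comparisons, 0 to 90 and 0 to 103 for the genotype terms (the highest without RPC1), and 0 between genotypes. The difference in S-high share ran from 2.43 to 3.64 points and in G2/M-high share from 3.69 to 6.35.

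Uhrf1 and Ezh2 kept their S-high calls, and Dnmt1 its G2/M-high call, in 12 of 12 alternatives. Directions turned only for members that were not called. Between genotypes, Tet3 gave 0.0012 without TMM and 0.0084 without the filter. Leaving out each animal, the genotype value ran from -0.074 to 0.55 for Tet1, -0.021 to 0.59 for Tet2, -0.43 to 0.25 for Tet3, -0.066 to 0.18 for Uhrf1, -0.054 to 0.15 for Ezh1, -0.35 to 0.12 for Ezh2 and -0.25 to 0.030 for Kdm1a. In cycle-low nuclei held to 0 phase transcripts, the genotype value was 0.11 for Dnmt3a and -0.19 for Tet1. For S-high nuclei, Dnmt3b gave -0.0019 with the top 20% and -0.024 without nuclei above 4 times the median. For G2/M-high nuclei, Tet1 gave 0.0017 by DESeq2 and 0.040 without the block, and -0.15 to 0.17 without each animal. There Tet2 gave -0.055 without the filter, -0.041 and -0.076 with the top 5 and 20%, -0.055 with scores at full depth, -0.0067 without nuclei above 4 times the median, and -0.043 to 0.096 without each animal.

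With the replicate number as a block, 0 genes were called between genotypes, in all and in cycle-low tumor-like nuclei. The numbers share only a number: the deviations of same-numbered animals had r = -0.0457 over 20129 genes.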
